A study of Mus musculus with 6 samples.

Results

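Cyclin-dependent kinase (CDK) inhibitors are small proteins that hold back the kinases driving the cell cycle. The genes of both inhibitor families were compared between undifferentiated mouse embryonic stem (ES) cells that have or lack Dicer, the enzyme that makes mature microRNAs from their hairpin precursors. The members are Cdkn1a, Cdkn1b and Cdkn1c of the CIP/KIP family and Cdkn2a, Cdkn2b, Cdkn2c and Cdkn2d of the INK4 family. They were taken by symbol as all probe sets, the groups of short probes that read a transcript, whose platform annotation names 1 gene and that gene is a member. This gave 7 genes on 9 probe sets, of 18194 genes and 45101 probe sets in all. The heterozygous group is line D4, Dicer +/-, and the null group is line 27H, Dicer -/-, which the series title calls 27H10, with 3 Affymetrix arrays of each. Neither line was treated or differentiated, and the labels name no other allele, strain, passage or feeder layer. Each genotype is represented by 1 line, so effects of the genotype and of the line cannot be told apart. Whether replicate arrays come from separate cultures is not stated, and p-values therefore cover the spread among these arrays, which may be technical.

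The CIP/KIP proteins p21, p27 and p57, encoded by Cdkn1a, Cdkn1b and Cdkn1c, bind complexes of cyclins with CDK2 and also help cyclin D to assemble with its kinases. The INK4 proteins p16, p15, p18 and p19 bind the kinases CDK4 and CDK6 and keep cyclin D away from them; Cdkn2a also encodes ARF, which shields p53 from its ubiquitin ligase MDM2. Mouse ES cells pass through a very short G1 phase with high CDK2 activity, and low CDK inhibitor levels are a known feature of that cycle.

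Several inhibitors are published targets of microRNAs, which Dicer produces. The mature sequences of 11 of these microRNAs are shown because their seeds, the bases 2 to 8 that pair with a target, fall into few groups. They come from RefSeq on GRCm38.p6 and are written 5′ to 3′ with the seed in capitals. The first set, of the ES-cell clusters miR-290 to 295 and miR-302, is published as acting on Cdkn1a:
miR-290a-3p: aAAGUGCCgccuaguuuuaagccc
miR-291a-3p: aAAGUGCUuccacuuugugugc
miR-294-3p: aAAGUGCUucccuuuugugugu
miR-295-3p: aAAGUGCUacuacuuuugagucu
miR-302b-3p: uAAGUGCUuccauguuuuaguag
miR-302d-3p: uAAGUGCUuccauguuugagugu
Of these, 5 share the seed AAGUGCU, which in the table of 1738 mature mouse sequences occurs only in those 5, and miR-290a-3p differs from it in its seed. The second set, from the miR-17 and miR-106b clusters, is published as acting on Cdkn1a too and carries its first letters, AAGUGC, moved by 1 base:
miR-17-5p: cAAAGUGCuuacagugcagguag
miR-93-5p: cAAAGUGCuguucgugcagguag
miR-106b-5p: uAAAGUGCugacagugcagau
Their seed occurs in 7 of the 1738 sequences. The third set, from the X chromosome, is published as acting on Cdkn1b and Cdkn1c:
miR-221-3p: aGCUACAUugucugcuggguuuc
miR-222-3p: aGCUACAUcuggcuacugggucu
Their seed occurs in 3 of the 1738 sequences. MicroRNAs were not measured on these arrays, and transcripts were not searched for seed matches here, so these sequences are background to the values below.

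Of the 7 inhibitor genes, Cdkn1a and Cdkn2a rose in null cells and 0 fell. All values are intensities in arbitrary units, given for replicates 1, 2 and 3 of each line, with means ± SD over 3 arrays. Differences are null minus heterozygous on the log2 scale from limma, and calls needed both a 2-fold difference and an adjusted p under 0.05 (Benjamini-Hochberg, over 12927 genes tested). All 7 genes passed the filter on low values, which asks for 32 units or more on at least 3 arrays. Over all genes tested, 7.23% were called higher and 6.2% lower, against 2 and 0 of the 7 members. The median difference was 0.24 over the members and -0.015 over all genes. By adjusted p alone, with no limit on size, 3 members were higher and 0 lower, where 24.5% and 24.3% of all genes were. The same 3 members, Cdkn1a, Cdkn2a and Cdkn2b, had null arrays that all lay above the heterozygous ones, and 0 members the reverse, where 28.3% and 28.9% of all genes did so.

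**Figure D1:**
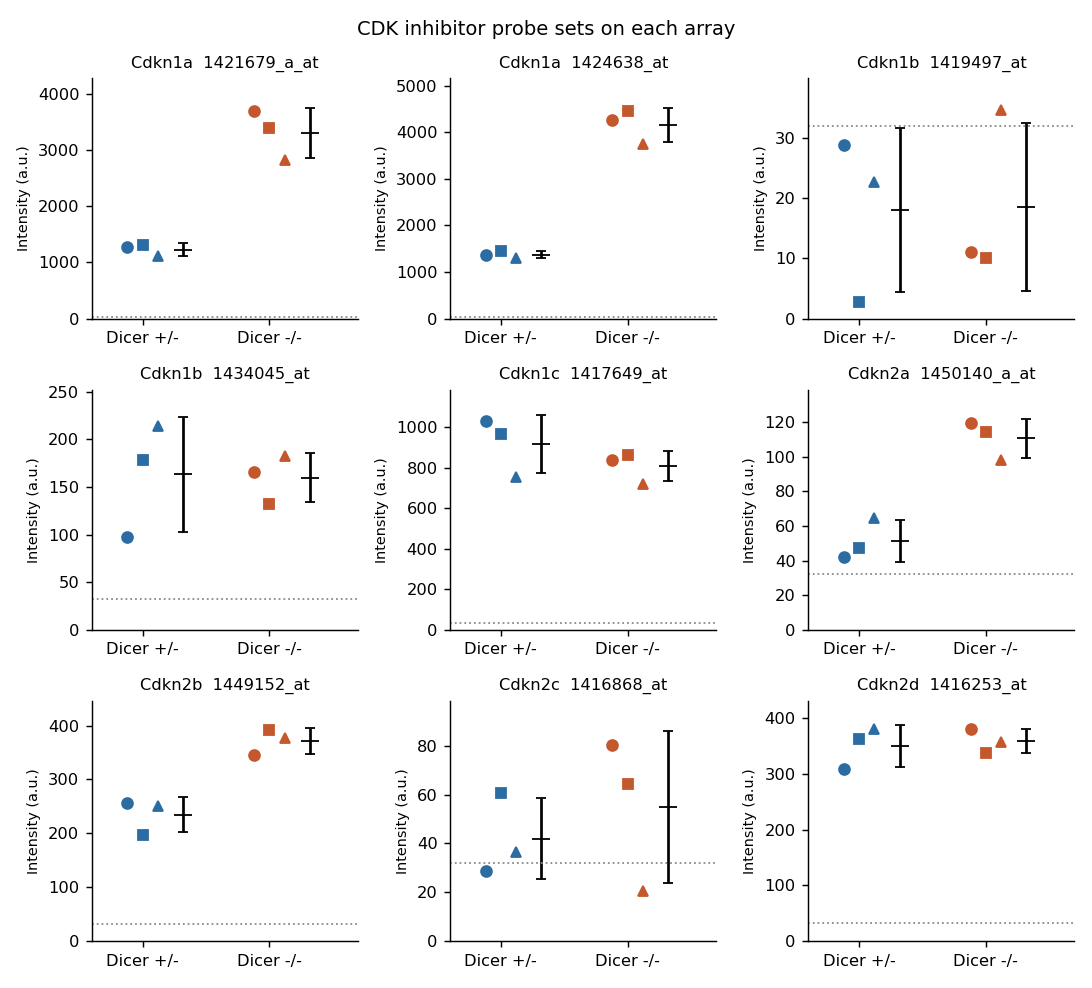
Intensity of each of the 9 CDK inhibitor probe sets (arbitrary units, linear axis from 0) on each array, with Dicer +/- in blue and Dicer -/- in orange. Circles, squares and triangles are replicates 1, 2 and 3, the black bar is the mean ± SD (n = 3), and the dotted line is the filter level of 32; both Cdkn1a probe sets, Cdkn2a and Cdkn2b show no overlap between the lines.

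Cdkn1a, the p53-responsive inhibitor p21, showed the largest difference among the members. Its brighter probe set, 1424638_at, read 1368, 1449 and 1293 in heterozygous cells and 4269, 4450 and 3742 in null cells. The null arrays all lay far above the heterozygous ones. The means were 1370 ± 78.3 and 4154 ± 368, a log2 difference of 1.60 ± 0.082 (SE; 95% interval 1.42 to 1.78; limma adjusted p = 8.17e-08), or 3.03-fold. Of all genes tested, 6.46% had a larger difference in either direction. In bulk RNA, more cells with the transcript and more transcript per cell cannot be told apart, here and for every gene below.

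The second Cdkn1a probe set, 1421679_a_at, read 1272, 1313 and 1107 in heterozygous and 3707, 3393 and 2817 in null cells. It gave the same picture, with no overlap and the lowest value of each line on replicate 3. Its difference was 1.42 ± 0.11 (SE; 95% interval 1.18 to 1.66), or 2.68-fold, with a limma adjusted p of 4.92e-06 over 26545 probe sets. At the level of probe sets, 8 of the 9 passed the filter and 3 were called higher, both of Cdkn1a and that of Cdkn2a, where 5.97% of all probe sets were.

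Cdkn1a has a pair of annotated starts on chromosome 17. The 300 bases around each, from 250 before the start to 50 after it, are shown because Cdkn1a moved most and the starts differ in what they hold. The upstream window, chr17:29090729-29091028 on the plus strand of GRCm38.p6, holds the match to the p53 consensus shown in capitals:
Cdkn1a upstream start: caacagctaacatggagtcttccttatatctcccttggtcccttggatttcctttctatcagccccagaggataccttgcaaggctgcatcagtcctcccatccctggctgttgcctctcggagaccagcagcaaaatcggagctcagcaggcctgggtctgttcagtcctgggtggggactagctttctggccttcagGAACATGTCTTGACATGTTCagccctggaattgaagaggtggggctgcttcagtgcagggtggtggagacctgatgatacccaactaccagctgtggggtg
This stretch of 20 bases lies at bases 200 to 219 of the window and has 1 mismatch to the consensus of 2 adjoining decamers. Of 32851 RefSeq promoter windows of the same length, 22 held a match with at most 1 mismatch, which is 0.067%, and it was the only one among the 9 member windows. The downstream window, chr17:29093519-29093818 on the plus strand, holds 2 GC boxes, the letters GGGCGG on either strand, in capitals:
Cdkn1a downstream start: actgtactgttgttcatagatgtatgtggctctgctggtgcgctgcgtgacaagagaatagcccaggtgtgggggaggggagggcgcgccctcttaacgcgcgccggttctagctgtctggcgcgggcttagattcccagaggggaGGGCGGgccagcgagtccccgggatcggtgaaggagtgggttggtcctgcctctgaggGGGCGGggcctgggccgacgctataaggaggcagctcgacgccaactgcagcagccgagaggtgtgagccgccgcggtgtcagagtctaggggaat
It has 23 CG dinucleotides against 2 in the upstream window and a median of 7 over all windows. A match describes letters in a window and is not a measured binding site; the arrays cannot tell which start was used.

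Cdkn1b, the inhibitor p27, whose level is set to a large extent by turnover of the protein, was not called. Its brighter probe set, 1434045_at, read 97.0, 178 and 214 in heterozygous and 165, 131 and 182 in null cells. The heterozygous arrays spread more widely than the lines differed, and the null values lay inside their range. The difference was 0.034 (95% interval -0.57 to 0.64; limma adjusted p = 0.932), so a change of up to 1.56-fold upward or to 0.673 of the heterozygous level was within the interval. The other probe set, 1419497_at, read 28.7, 2.71 and 22.6 in heterozygous and 11.0, 9.98 and 34.6 in null cells. It reached 32 on 1 array only and was not tested.

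Cdkn1c, the imprinted inhibitor p57, which is expressed from the maternal allele in mouse tissues, was also not called. Probe set 1417649_at read 1029, 967 and 753 in heterozygous and 837, 862 and 722 in null cells. The ranges overlapped, with replicate 3 lowest in each line. The difference was -0.18 (95% interval -0.45 to 0.096; limma adjusted p = 0.267).

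Within an array, the log2 ratio of Cdkn1a to Cdkn1c was 0.41, 0.58 and 0.78 in heterozygous and 2.35, 2.37 and 2.37 in null cells. The SD of this ratio was 0.18 in heterozygous and 0.013 in null cells, so the intensities of both genes went up and down together between the null arrays. The ratio was 1.77 higher in null cells, and that of Cdkn1a to Cdkn1b 1.56 higher. These pairs were chosen after their values were seen, so the ratios are a description. An exact permutation test gave p = 0.1 for each, the smallest value possible with 3 arrays per line, so it cannot decide. The ratios show unequal change, not that Cdkn1b or Cdkn1c did not change.

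Cdkn2a, which encodes p16 and ARF from separate first exons, rose from a low level. Probe set 1450140_a_at read 42.0, 47.1 and 64.9 in heterozygous and 120, 115 and 98.1 in null cells. Every null array lay above every heterozygous one, although the heterozygous values were not far above the filter level of 32. The means were 51.3 ± 12.01 and 111 ± 11.3, a log2 difference of 1.13 ± 0.29 (SE; 95% interval 0.49 to 1.77; limma adjusted p = 0.00729), or 2.19-fold (1.40 to 3.41). Of all genes tested, 13.8% had a larger difference. The gene has no other probe set here, and the ending _a_at marks probes shared by several transcripts of a gene, so p16 and ARF could not be told apart. The call was lost without heterozygous replicate 1, with a difference of 0.998, and on the scale log2(value + 16), with 0.92; under all alternatives that tested it the adjusted p was between 0.00217 and 0.0306.

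Cdkn2b, the inhibitor p15 and a target of TGF-beta signalling, lies next to Cdkn2a on chromosome 4. Probe set 1449152_at read 256, 197 and 250 in heterozygous and 345, 393 and 377 in null cells. No null array fell into the heterozygous range. The means of 235 ± 32.5 and 371 ± 24.5 gave a log2 difference of 0.67 ± 0.14 (SE; 95% interval 0.36 to 0.98) with a limma adjusted p of 0.00208. At 1.59-fold the gene passed the threshold on p and not that on size.

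The windows at the starts of Cdkn2a and Cdkn2b, all on the minus strand of chromosome 4, are shown because these neighbours were both higher on every null array. The upstream start of Cdkn2a, in the window chr4:89294570-89294869, is that of ARF, and the downstream one, in chr4:89282143-89282442, that of p16; the Cdkn2b window is chr4:89310983-89311282. Capitals mark GC boxes:
Cdkn2a upstream start: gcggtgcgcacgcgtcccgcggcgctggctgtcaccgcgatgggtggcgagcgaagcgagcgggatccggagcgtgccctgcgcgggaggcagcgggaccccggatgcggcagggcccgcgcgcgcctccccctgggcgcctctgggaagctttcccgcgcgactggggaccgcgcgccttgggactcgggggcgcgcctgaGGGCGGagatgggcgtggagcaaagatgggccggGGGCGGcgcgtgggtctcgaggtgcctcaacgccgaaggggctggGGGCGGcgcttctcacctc
Cdkn2a downstream start: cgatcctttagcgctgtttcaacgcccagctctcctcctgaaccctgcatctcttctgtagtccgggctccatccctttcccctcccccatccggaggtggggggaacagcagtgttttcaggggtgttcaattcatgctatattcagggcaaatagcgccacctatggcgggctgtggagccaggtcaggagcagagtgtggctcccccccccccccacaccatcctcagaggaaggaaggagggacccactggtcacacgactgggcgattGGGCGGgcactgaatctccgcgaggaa
Cdkn2b start: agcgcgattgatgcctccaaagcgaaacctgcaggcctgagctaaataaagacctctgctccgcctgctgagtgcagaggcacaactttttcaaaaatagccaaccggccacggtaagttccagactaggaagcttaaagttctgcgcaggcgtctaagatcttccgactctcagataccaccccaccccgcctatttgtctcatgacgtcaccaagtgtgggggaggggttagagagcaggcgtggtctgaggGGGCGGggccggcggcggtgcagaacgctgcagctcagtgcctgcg
The ARF window holds 45 CG dinucleotides and 3 GC boxes, the p16 window 12 and 1, and the Cdkn2b window 18 and 1. Of the 7 members, 6 were found in the promoter table, with 9 windows; Cdkn1c was not. GC boxes were in 7 of the 9 windows and in 35.7% of all windows. The motif TATAAA was in 0 of the 9 and 13.6% of all. The letters CCAAT were in 4 of the 9 and 37.4% of all, and the E box CACGTG in 1 of the 9 and 7.15% of all, each counted on both strands. None of these 4 letter strings contains another.

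Cdkn2c, the inhibitor p18, was near the filter level. Probe set 1416868_at read 28.8, 60.5 and 36.7 in heterozygous and 80.6, 64.4 and 20.3 in null cells. The highest and the lowest of the 6 values were both in null cells. The difference of 0.24 had a 95% interval of -1.03 to 1.51 (limma adjusted p = 0.759), which leaves a 2-fold change in either direction inside it. Cdkn2d, the inhibitor p19, was measured more precisely: probe set 1416253_at read 309, 363 and 381 in heterozygous and 381, 338 and 357 in null cells. The ranges overlapped nearly in full. Its difference was 0.035 (95% interval -0.24 to 0.31; limma adjusted p = 0.838).

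**Figure D2:**
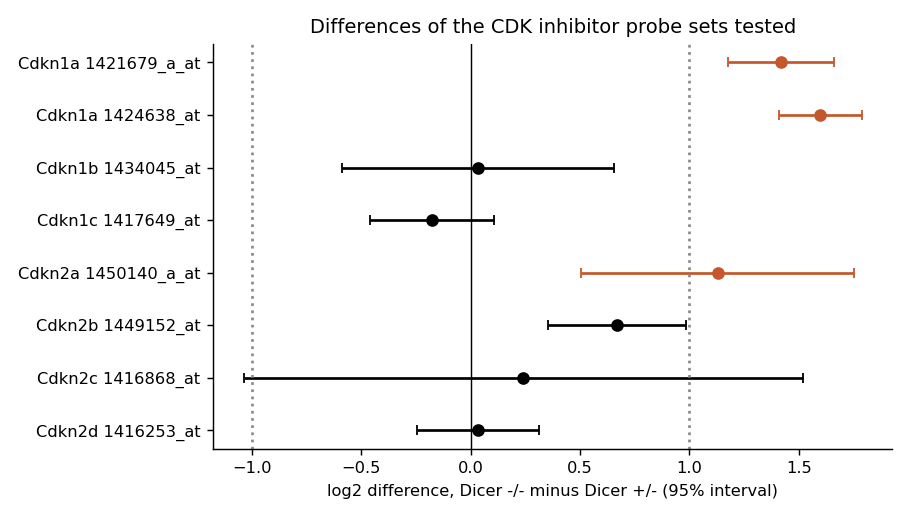
Log2 difference (Dicer -/- minus Dicer +/-) of the 8 probe sets tested, with 95% intervals from the limma fit over all probe sets; orange marks called probe sets and dotted lines mark 2-fold. Both Cdkn1a intervals lie wholly above 1, that of Cdkn2a spans 1, that of Cdkn2b ends just under it, and the Cdkn2c interval spans 2-fold in both directions.

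Centring each array on its median raised every difference by 0.15, alike for all genes, and changed the split of called genes from 53.8% to 68.7% higher, and the members called were 2 higher and 0 lower under both and under quantile normalization. On the centred scale Cdkn1a was at 1.75, Cdkn2a at 1.28 and Cdkn2b at 0.82, so Cdkn2b stayed under the threshold of size. Quantile normalization moved genes unequally, with Cdkn1a at 1.596, Cdkn2a at 1.23 and Cdkn2c at 0.42.

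**Figure D3:**
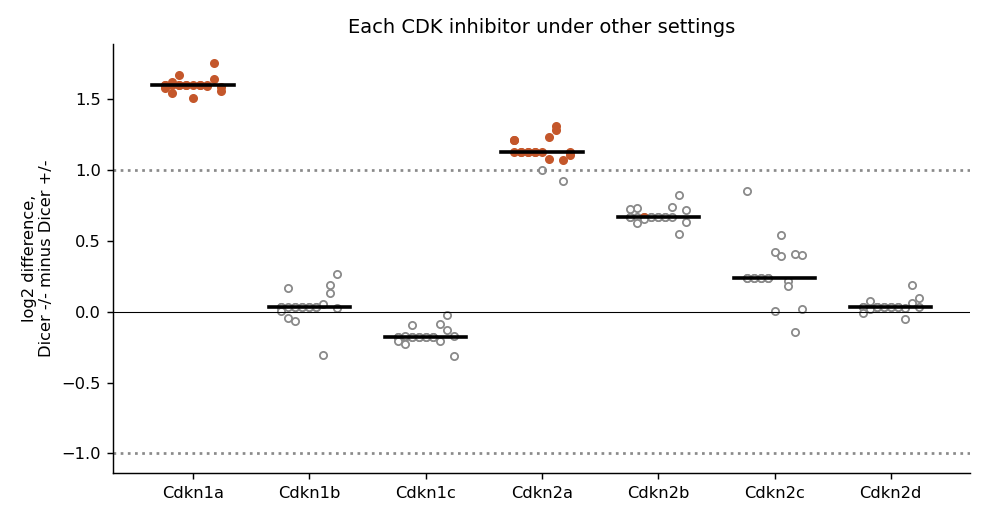
Log2 difference of each member under 21 other settings of the analysis (points; filled where called under that setting) with the reported value as a black bar and dotted lines at 2-fold. All Cdkn1a points are called and lie between 1.51 and 1.75, those of Cdkn2a lie between 0.92 and 1.31, and those of Cdkn1b, Cdkn2c and Cdkn2d fall on both sides of 0; the filled Cdkn2b point has no limit on size.

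Among the partners that the inhibitors bind, Ccnd2, a D-type cyclin, rose. Of 11 cyclins and kinases tested, 1 was called higher and 0 lower; by adjusted p alone 4 were higher and 5 lower, and their median was -0.097. Ccnd2 went from 926 ± 70.1 to 1931 ± 117 (log2 difference 1.06, limma adjusted p = 1.91e-06), with 3 of its 6 probe sets called higher, and it was not called as the mean of its probe sets (0.945). The other D-type cyclins differed by 0.67 (Ccnd3) and -0.35 (Ccnd1) on their brightest probe sets. Their remaining probe sets differed by 1.39 (Ccnd3) and by -0.93 and -0.13 (Ccnd1), and none was called. On their brightest probe sets the E-type cyclins, partners of CDK2, differed in opposite directions, Ccne1 by -0.72 and Ccne2 by 0.88. The other Ccne1 probe set did not show the fall, with a difference of 0.11 (limma adjusted p = 0.576). Ccne2 was called on the centred scale (1.03) and without heterozygous replicate 3 or null replicate 1 (1.01 each). CDK2 itself, the main kinase bound by p21 and p27, read 1617 ± 65.1 and 1126 ± 107, a difference of -0.53. The kinases bound by INK4 proteins differed by -0.22 (Cdk4) and -0.025 (Cdk6).

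Downstream of these kinases are the pocket proteins, which bind E2F factors until they are phosphorylated. Of 13 such genes tested, 1 was called higher and 0 lower. Rbl2, which encodes the pocket protein p130, rose by 2.08, and both of its probe sets were called; both are shared between transcripts, so leaving such probe sets out did not test it and gave 0 calls in the list. Its relative Rbl1 was at 0.98, under the threshold of size, but was called on the centred scale (1.13) and without heterozygous replicate 3 (1.12) or null replicate 1 (1.01). E2f8, a repressing E2F factor, was at -0.56 on its brightest probe set and not called. Its other probe set, picked after its values were seen, was called lower at -1.004 (limma adjusted p = 0.00203).

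Of 13 genes that turn over CIP/KIP proteins or assist in it, 1 was called higher and 0 lower. Dtl, a receptor of the CUL4 ligase that targets p21 in S phase, rose from 1345 ± 76.0 to 3123 ± 342 on its brightest probe set. Its probe sets disagreed, since 2 dimmer ones were called lower, at -1.34 and -1.05, and the mean over its probe sets was -0.19, not called. Skp2, the F-box protein that targets p27, differed by 0.63 and none of its 6 probe sets was called. Rnf123, a ligase subunit acting on p27, differed by 0.70.

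Factors known to activate transcription of CDK inhibitors were called higher in 1 and lower in 2 of 17 cases. Smad2, at 0.43 and not called, was called higher without shared probe sets (1.04), and is named after its values were seen. Notch1, a receptor whose signal induces Cdkn1a in skin, rose from 499 ± 30.9 to 1071 ± 67.1 on its brighter probe set. Its other probe set, at 0.85, was not called, nor was the mean of both (0.97). Ets1, which activates Cdkn2a, fell from 139 ± 7.08 to 24.6 ± 8.94, and Cebpa from 57.1 ± 14.9 to 6.69 ± 4.55. Both were low in null cells, and with values under 32 raised to 32 the ratio of null to heterozygous was 0.573 for Cebpa, which was then not called. Cebpa was also not called at an adjusted p under 0.01, and it was not tested with filters of 6 or 7 or without any 1 of the heterozygous replicates, which leaves Ets1 as the only activator called lower in those settings. The p53 gene was not analysed here. Of 5 genes that set its level or act around ARF, 0 were called. Mdm2, both a target and the ubiquitin ligase of p53, read 3597 ± 207 and 1895 ± 415, a difference of -0.95 (limma adjusted p = 0.000145), and its other probe set differed by -0.66. It was called lower without null replicate 1 (-1.08) or null replicate 2 (-1.01). Huwe1, a ligase bound by ARF, differed by -0.48 on its brightest probe set. The Huwe1 probe sets disagreed, since the others differed by 0.48, -0.12 and -0.72, and none was called.

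Repressors of the inhibitors went both ways. Of 19 tested, 2 were called higher and 2 lower; by adjusted p alone 9 were higher and 4 lower, with a median of 0.15. Bmi1, a Polycomb protein that represses the Cdkn2a locus, rose from 436 ± 43.8 to 1238 ± 201 (log2 difference 1.496, limma adjusted p = 3.07e-06), and its other probe set rose by 1.85. The Polycomb protein Cbx8 rose from 38.7 ± 8.72 to 135 ± 32.04. Its relative Cbx7, also a Cdkn2a repressor, fell from 1384 ± 77.4 to 592 ± 20.4, and 2 of its 3 probe sets were called lower. Myc, which represses Cdkn1a and Cdkn2b through MIZ1, fell from 2096 ± 32.9 to 889 ± 68.7 (log2 difference -1.24, limma adjusted p = 3.99e-07). Cbx8 was not tested with a filter of 7, nor Myc without shared probe sets. Ezh2, the Polycomb methyltransferase, differed by 0.15 (limma adjusted p = 0.162).

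**Figure D4:**
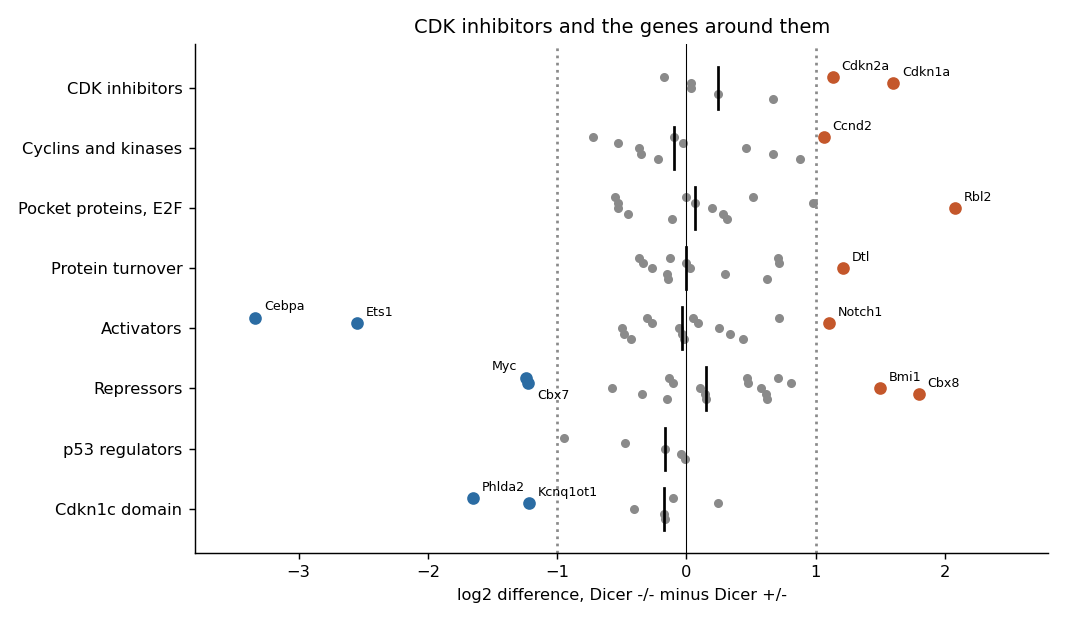
Log2 difference (Dicer -/- minus Dicer +/-) of the 7 CDK inhibitors and of the tested genes in 7 lists around them, one point per gene; orange and blue mark genes called higher and lower, grey those not called, black bars the medians and dotted lines 2-fold. Repressors and activators have called genes on both sides, and the medians lie between -0.18 and 0.24.

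The neighbours of each member on its chromosome were read to see whether whole stretches moved. Over all tested genes of chromosome 17, which holds Cdkn1a, 6.53% were called higher and 8.12% lower. The shares were 7.35% and 5.88% on chromosome 4, which holds Cdkn2a, Cdkn2b and Cdkn2c. They were 6.72% and 5.6% on chromosome 6 (Cdkn1b) and 7.75% and 4.95% on chromosome 9 (Cdkn2d). Among the 6 tested genes on each side of Cdkn1a, 1 was called higher (Stk38, 1.03) and 1 lower (Pim1, -1.36), and the genes next to it, Srsf3 and Cpne5, differed by 0.026 and 0.37. Around Cdkn2a 0 of 12 were called in either direction; next to it lie Mtap at 0.26 and Cdkn2b at 0.67. Cdkn2b has Zfp352 on its other side, at -1.77 with a limma adjusted p of 0.131. Cdkn2d, too, had 0 of 12 neighbours called. Cdkn1b had 1 called higher (Crebl2, 1.41) and Cdkn2c 2 (Osbpl9, 1.26, and Dmrta2, 1.29), with 0 lower; these called neighbours are named after their values were seen. Cdkn1b lies between Gpr19 (-0.55) and Apold1 (-0.65), Cdkn2c between Rnf11 (0.83) and Faf1 (-0.034), and Cdkn2d between Kri1 (0.074) and Ap1m2 (-0.61).

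Cdkn1c stood between called genes. Over all tested genes of chromosome 7, 4.17% were called higher and 8.44% lower. Of the 12 genes around Cdkn1c, 0 were called higher and 3 lower, R74862, Kcnq1ot1 and Phlda2. Phlda2, an imprinted growth regulator of the placenta on its one side, fell from 2974 ± 203 to 945 ± 42.8 (log2 difference -1.65, limma adjusted p = 5.01e-08). Kcnq1ot1, the long non-coding RNA that silences this imprinted domain on the paternal chromosome, fell from 185 ± 30.5 to 79.7 ± 13.6 (log2 difference -1.22, limma adjusted p = 0.000941). Of its 3 probe sets 1 was called, the others differed by -0.99 and -0.44, and the mean over them was not called (-0.88). Of 7 tested genes of the imprinted domain, 0 were called higher and 2 lower, with a median of -0.18, which is the value of Cdkn1c. The placental factor Ascl2 was not called on its brightest probe set among those tested (-0.41), and another of its probe sets, picked after its values were seen, was called lower at -1.27. The log2 ratio to Cdkn1c on the same array differed by -1.48 for Phlda2 and by -1.04 for Kcnq1ot1, pairs that were also chosen after their values were seen.

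**Figure D5:**
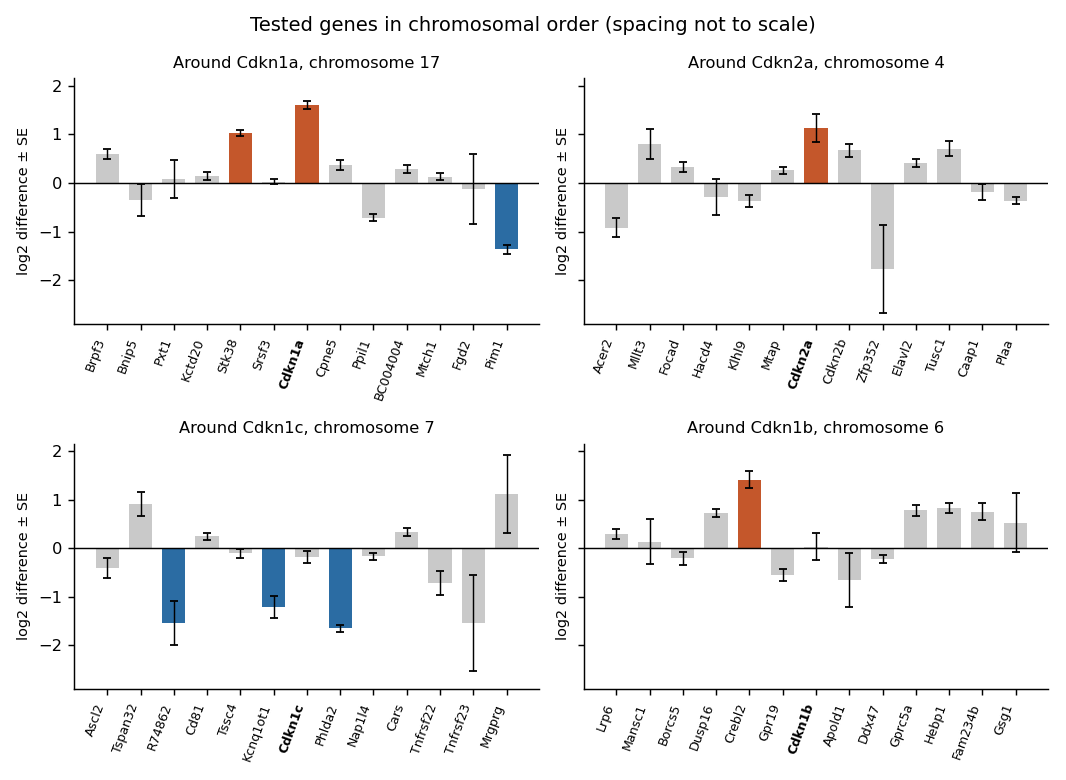
Log2 difference ± SE (Dicer -/- minus Dicer +/-) of the tested genes in chromosomal order around 4 members (names in bold), evenly spaced; orange bars are called higher, blue lower, grey not called. The nearest tested genes on both sides of Cdkn1a and of Cdkn2a are not called, and Cdkn1c, itself at -0.18, lies between Kcnq1ot1 and Phlda2, both called lower.

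Genes whose log2 values followed a called member most closely over the 6 arrays are given by Pearson's r, as a description, since the line sets most of such an r. For Cdkn1a they were Mrps7, a mitochondrial ribosomal protein, Rdm1 and Dnajc6, and 1530 genes, or 11.8% of those tested, had an r over 0.95. For Cdkn2a they were Snrk, Cyb5r3 and Pmepa1, and 433 genes, or 3.35%, had an r over 0.95. Genes with similar names that are not members were not called: Cdkn3, a phosphatase acting on CDK2, differed by 0.68 and Cdk2ap1 by -0.50.

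Over the whole series, arrays of 1 line correlated across tested genes at an r of 0.967 to 0.973, and arrays of different lines at 0.924 to 0.928. Array medians were 49.1 to 52.7 in heterozygous and 44.9 to 46.5 in null cells. Dicer1 transcript read 1098 ± 39.2 and 1197 ± 62.2 (limma adjusted p = 0.222); the labels do not say which exons were deleted, so this does not check the genotypes. Of 10 ES cell markers 0 were called, and their summed intensity was 118512 to 124493 in heterozygous and 108455 to 117843 in null cells.

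Some markers of other cells differed between the lines. Of 9 tested fibroblast (feeder) markers 1 was called higher (Dcn) and 3 lower, and Postn was under 32 on every array. The sum of the 12 on the array was 1807 to 2079 in heterozygous and 1264 to 1349 in null cells. Without the brightest marker, Acta2, it was 752 to 824 and 719 to 836. Of the 11 markers left, 8 had a lower mean in null cells, while Dcn rose from 31.0 ± 23.8 to 263 ± 56.6. Primitive endoderm markers were called higher in 1 (Sparc) and lower in 4 of 10 cases, with sums of 9730 to 9884 and 12971 to 14414. Sparc alone carried that higher sum: the other 9 markers all had a lower mean in null cells, and their sums were 3457 to 4148 and 1401 to 1603. Trophoblast markers were called lower in 2 of 9 (Cdx2 and Krt18) and higher in 0, with sums of 11516 to 12791 and 6298 to 6828, and Elf5 was under 32 throughout. Most of the fall in that sum lay in the keratins Krt8 (4700 ± 35.8 to 2705 ± 36.0) and Krt18 (5244 ± 340 to 1896 ± 95.5). Of the 9 markers besides Krt8, 6 had a lower mean in null cells. Neural markers were called higher in 3 of 6 (Pax6, Map2 and Ncam1), where 7.23% of all genes were, with sums of 1370 to 1542 and 1948 to 2270. Not called were Sox1 (0.90), Nes (-0.31) and Tubb3 (-0.18), and Neurog2 was under 32 throughout. Mesoderm markers were called in 0 of 3, with sums of 220 to 294 and 209 to 284. The part of these cells in the differences of Cdkn1a, Cdkn2a, Cdkn2b, Phlda2 and Kcnq1ot1 was not tested.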

How the data were processed

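Total RNA was amplified into biotin-labelled cRNA and hybridized to Affymetrix mouse arrays, per the labels' protocols. The authors deposited 1 intensity per probe set and array on a linear scale, scaled to a common mean after trimming 2% at each end, as tested on the values; GCRMA is named in the submitters' processing notes, and its role is not given in the sources used here. The number of arrays limits the precision. Values were turned into log2 here, 64 control probe sets were left out, and probe sets needed a log2 of 5 in 3 arrays. Of all probe sets, 34958 carried 1 symbol in the platform annotation, 932 several and 9211 none; 0 symbols changed on update through the GRCm38.p6 gene table. A gene was represented by its brightest single-symbol probe set. Tests used limma 3.58.1 in R 4.3.3 (lmFit and eBayes, trend on mean intensity; two-sided) and Benjamini-Hochberg adjustment over all genes or all probe sets tested, and the code was tested on simulated data. Fold changes come from mean log2 values.

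Replicate numbers were checked for pairing: deviations from the group means of same-numbered arrays correlated at 0.033, 0.028 and 0.076 across genes, too little to pair them.

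The genes named are all members, 15 genes given whatever their values, from each list up to 4 called genes or, where fewer than 2 were called, up to 2 more at an adjusted p under 0.05, the nearest tested gene on each side of a member, and the 3 genes most alike to a called member. The members and lists were chosen with earlier results of these data known, so no list was tested. Gene order and microRNA and promoter sequences come from RefSeq tables of GRCm38.p6. Alternatives were other filters, variance priors, normalizations, log scales, array weights, thresholds, ways to combine probe sets, the replicate number as a block, and leaving out each array.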

Additional observations from a re-analysis of the deposited data

How the results depend on the processing

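Of 21 other settings, 16 gave 2 members called higher, 4 gave 1 and 1, adjusted p alone, gave 3; under none of the 21 was a member called lower. The count was 1 with a log2 filter of 7, with log2(value + 16), without probe sets shared between transcripts and without heterozygous replicate 1, and it was 1 to 2 when each array was left out. In each of these 4 the gene lost was Cdkn2a: it was at 0.92 with log2(value + 16), and the filter of 7 and the setting without shared probe sets did not test it, by their construction. Cdkn1a stayed called under all 21 settings. Without a limit on size Cdkn2b was called at 0.67, and 3162 genes were called higher and 3143 lower, against 934 and 802; with the filter of 7, which tests fewer genes, 525 were lower. With array weights Cdkn1b was at -0.046, and its probe set at -0.035.

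Leaving out each array gave 1.55 to 1.67 for Cdkn1a, 0.998 to 1.31 for Cdkn2a, 0.55 to 0.74 for Cdkn2b, -0.30 to 0.27 for Cdkn1b, -0.31 to -0.086 for Cdkn1c, -0.14 to 0.85 for Cdkn2c and -0.054 to 0.098 for Cdkn2d; the probe sets that stand for these 7 genes gave the same values, and the second one of Cdkn1a gave 1.33 to 1.53. Cdkn1b was below 0 without heterozygous replicate 1 (-0.30) and without null replicate 3 (-0.07), Cdkn2c without null replicate 1 (-0.14), and Cdkn2d without heterozygous replicate 1 (-0.054) or null replicate 1 (-0.0088). The cause was not tested. With the replicate block, 2 members were called higher and 0 lower, Cdkn1a at 1.60 and Cdkn2a at 1.13 (limma adjusted p = 0.013, in a range of 0.00217 to 0.0306 over its alternatives), and it changed no member's call.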
